A study of Homo sapiens with 12 samples.

Results

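The 170 genes described here are the zinc-finger genes with a numbered ZNF symbol that reached at least 5 FPKM in both untreated groups, out of 558 rows with such a symbol and 58671 gene rows in all. FPKM is a level corrected for transcript length and for library size. The members were chosen by their FPKM in untreated WT and untreated RLKO cells, so those levels are given as a description and carry no test. Of the 170 genes, 168 were annotated as protein-coding and 2 as pseudogenes (ZNF271P and ZNF252P). The cells were A549, a human lung adenocarcinoma line. Total RNA of 12 samples was sequenced after rRNA depletion, with ERCC spike-in RNAs added beforehand. The 4 groups of 3 samples were parental A549 cells (WT) without treatment, WT cells 6 h after transfection of 500 ng/ml poly(I:C), RNase L knockout A549 cells (RLKO) without treatment, and RLKO cells 6 h after the same transfection. Poly(I:C) is a synthetic double-stranded RNA. Whether the knockout line is 1 clone is not stated.

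ZNF genes encode proteins in which a short fold, held by a zinc ion between a pair of cysteines and a pair of histidines, is repeated in tandem, and each repeat can read a few bases of DNA or RNA. The largest subclass in primates carries a KRAB box at its amino end, which binds the corepressor TRIM28 and brings silencing enzymes to DNA, often at mobile elements. RNase L is an endonuclease that is switched on when cells sense double-stranded RNA, and it cuts single-stranded RNA after UU and UA, so a comparison of both lines asks which transcript levels depend on it.

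The single deposited table gave 1 value per group, so no spread between samples can be stated, and sequencing depth is unknown. Differences between the lines therefore have no test here, and the tests given are the authors' own within each line. Changes were computed as log2(FPKM + 1) after division by a spike-in factor, since a fall of most mRNAs at once is hidden in FPKM; the pseudocount of 1 makes the change of a low gene smaller. The spike-in FPKM were 1.53 times higher after poly(I:C) in WT and 1.13 times higher in RLKO. In bulk RNA of this kind, fewer cells and less RNA per cell cannot be told apart. The epithelial keratin KRT8 was at 627 FPKM in untreated WT and 825 in untreated RLKO, while the epithelial genes CDH1 (2.93 to 4.52 FPKM over the 4 groups) and EPCAM (0.558 to 1.03) were low. Of leukocyte markers, PTPRC and CD3E were below 0.05 FPKM in every group and CD14 was at 0.488 to 0.873. Of fibroblast markers, COL1A2 was listed at 0 in every group and COL1A1 was at 2.06 to 7.17. IFIT2, an interferon-induced gene, went from 1.09 to 1113 FPKM in WT and from 1.41 to 604 in RLKO.

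The repeats that define the family are shown first, with the dinucleotides after which RNase L cuts. Each line below is 1 finger and the linker to the next finger, 84 bases, from the GENCODE v29 coding sequence on GRCh38, 5′ to 3′ in the sense of the mRNA, with T for U. Capitals mark every TT and TA. The 4 genes were chosen with their values known, as the member called lower, a chromosome 19 gene with a large difference in both lines, the member with the highest WT change, and a gene of the chromosome 19 end described later.
ZNF32: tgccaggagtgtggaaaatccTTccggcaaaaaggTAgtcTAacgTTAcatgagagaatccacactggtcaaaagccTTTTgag
ZNF480: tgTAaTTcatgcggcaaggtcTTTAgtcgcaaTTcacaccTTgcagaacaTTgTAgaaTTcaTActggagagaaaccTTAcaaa
ZNF274: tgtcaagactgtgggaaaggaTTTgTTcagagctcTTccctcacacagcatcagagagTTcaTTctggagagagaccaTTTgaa
ZNF587: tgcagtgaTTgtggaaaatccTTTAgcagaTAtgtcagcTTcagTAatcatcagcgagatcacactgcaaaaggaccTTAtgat
The ZNF32 finger lies at chr10:43644554-43644637 on the minus strand, in exon 3 of 3, and holds 8 such dinucleotides. The ZNF480 finger lies at chr19:52321947-52322030 on the plus strand, in exon 5 of 5, and holds 13. That of ZNF274 lies at chr19:58212790-58212873 on the plus strand, in exon 8 of 8, and holds 8. The ZNF587 finger lies at chr19:57859136-57859219 on the plus strand, in exon 3 of 3, and holds 9. All 4 stretches are coding sequence within the last exon. The scaled WT changes of these genes, in the order printed, were -2.67, -2.30, 0.83 and 0.29, and with 4 genes chosen by their values no relation to the count of dinucleotides can be read.

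Over whole coding sequences, the members held a median of 9.99 TT plus TA dinucleotides per 100 bases (168 genes), against 8.54 in 8295 other protein-coding genes of the same untreated level. ZNF32 had 7.66, ZNF274 had 6.42, ZNF587 had 10.4 and ZNF480 had 12.6. In the 3′UTR the order was the other way, with a median of 16.5 per 100 bases in members and 17.1 in the others. Members thus carried more of these dinucleotides in the coding sequence than other genes did, and slightly fewer in the 3′UTR. The pattern for a finger (cysteine, 2 to 4 residues, cysteine, 12 residues, histidine, 3 to 5 residues, histidine) was found in 164 of the 170 genes, with a median of 9 fingers and a maximum of 33.

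Most members were genes of low level. Untreated FPKM, taken in the group where the gene was lower, was between 5 and 10 for 84 genes, between 10 and 20 for 57, between 20 and 50 for 24, and 50 or more for 5. The median over members was 11.2 FPKM in untreated WT and 11.7 in untreated RLKO, against 24.2 and 24.6 for the other protein-coding genes. Of the ZNF rows outside the members, 227 were under 1 FPKM in the lower untreated group and 161 were between 1 and 5. Among the 227, 114 were listed at 0 in both untreated groups. Just inside the threshold were ZNF552 (5.04 FPKM in its lower untreated group), ZNF141 (5.05) and ZNF510 (5.05). Just outside it were ZNF362 (4.97), ZNF335 (4.95) and ZNF551 (4.92).

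The most abundant member was ZNF207, whose product helps kinetochores attach to the mitotic spindle. It was at 320 FPKM in untreated WT, 296 in treated WT, 430 in untreated RLKO and 283 in treated RLKO cells. Its spike-in-scaled log2 change was -0.73 in WT and -0.78 in RLKO, so both lines moved by a like amount. ZNF146, which consists almost only of fingers, was at 180 and 111 FPKM in untreated and treated WT and at 216 and 131 in RLKO. ZNF638, a nuclear RNA-binding protein with a part in silencing unintegrated retroviral DNA, was at 76.5 and 104 FPKM in WT and at 121 and 123 in RLKO. Its scaled log2 change was close to the same in both lines, -0.17 in WT and -0.15 in RLKO. ZNF410, an activator of the gene for the chromatin remodeller CHD4, was at 55.1 and 33.9 FPKM in WT and at 60.3 and 48.0 in RLKO. ZNF664 was at 52.2 and 42.9 FPKM in WT and at 61.3 and 48.6 in RLKO. After spike-in scaling all 5 of these genes were lower with treatment in both lines.

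**Figure D1:**
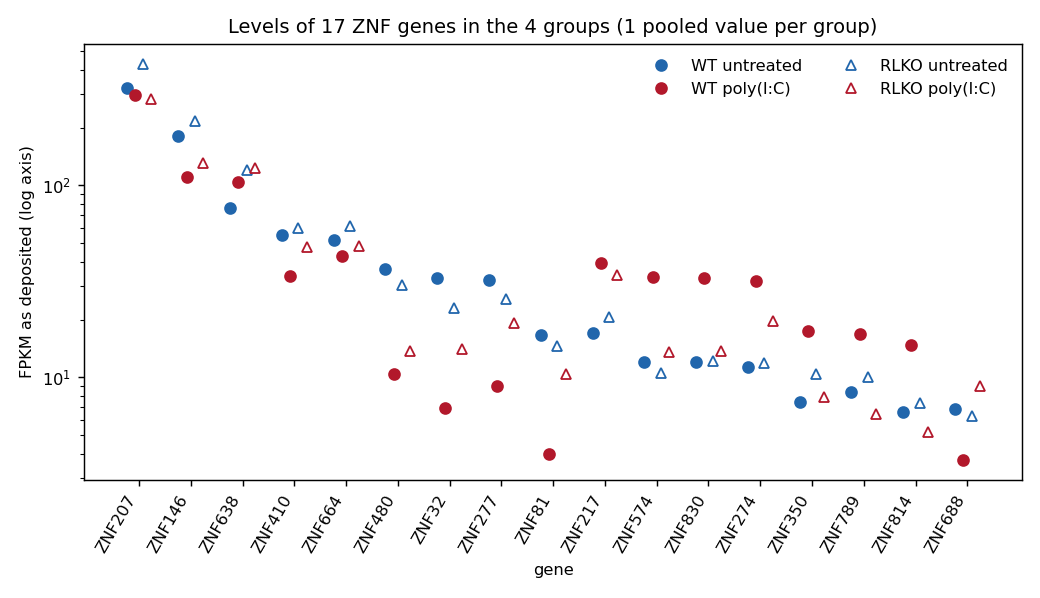
FPKM (log axis) of 17 ZNF genes in the 4 groups, circles for WT and triangles for RLKO, blue for untreated and red for poly(I:C); each point is the authors' 1 value for a group, so there are no error bars. ZNF32, ZNF277, ZNF81 and ZNF480 were far lower in treated WT, while ZNF217 and ZNF274 were higher after poly(I:C) in both lines.

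After poly(I:C), ZNF genes as a set were lower in WT by less than other genes were. The median log2 change in WT, scaled to the spike-ins, was -0.43 over the 170 members (quartiles -0.85 and 0.08, range -2.67 to 0.83) and -1.002 over 8314 other protein-coding genes. In RLKO the medians were nearly equal, -0.28 over members and -0.30 over the others. The difference of the responses, WT minus RLKO, had a median of -0.11 over members and -0.71 over the others. The level in treated cells tells the same in another way: 105 of 170 members were higher in treated WT than in treated RLKO on the spike-in scale, against 1877 of 8314 others, and the median difference was 0.10 against -0.45. In untreated cells the corresponding counts were 140 of 170 members and 6968 of 8314 others. The medians there were 0.22 and 0.28, so the medians of both sets were close before treatment. These are descriptions over genes, which share 4 group values and are not replicates.

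In WT, 30 of 170 members were lower by at least 1 log2 unit, where 49.5% of all protein-coding genes at this level were. In RLKO 4 members were, against a background of 7.3%. The difference of the responses was -1 or lower for 10 members, against 32.5%. None of the 170 was higher by 1 log2 unit or more in either line, where the background was 1.59% in WT and 0.672% in RLKO. Members below 0 in both lines numbered 114. A further 29 were above 0 in WT and below 0 in RLKO, 7 were the other way round, and 20 were above 0 in both.

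The signs of the WT, RLKO and WT minus RLKO medians all rest on the scale. On FPKM as deposited the median log2 change over members was 0.13 in WT and -0.13 in RLKO, and 101 of 170 members were higher after treatment in WT and 57 in RLKO. The WT minus RLKO median was then 0.28, with 124 of 170 members above 0, where spike-in scaling gave -0.11 and 72. Scaled to the median protein-coding gene, the medians were 0.54 in WT and 0.014 in RLKO, and the WT minus RLKO median was 0.55 with 147 members above 0. The distance between members and other genes moved little: the member median in WT was above that of the others by 0.57 with spike-in factors, by 0.55 on FPKM as deposited and by 0.54 with the protein-coding scale. In RLKO that distance was 0.013 with spike-in factors, 0.0039 on FPKM as deposited and -0.0028 with the protein-coding scale.

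**Figure D2:**
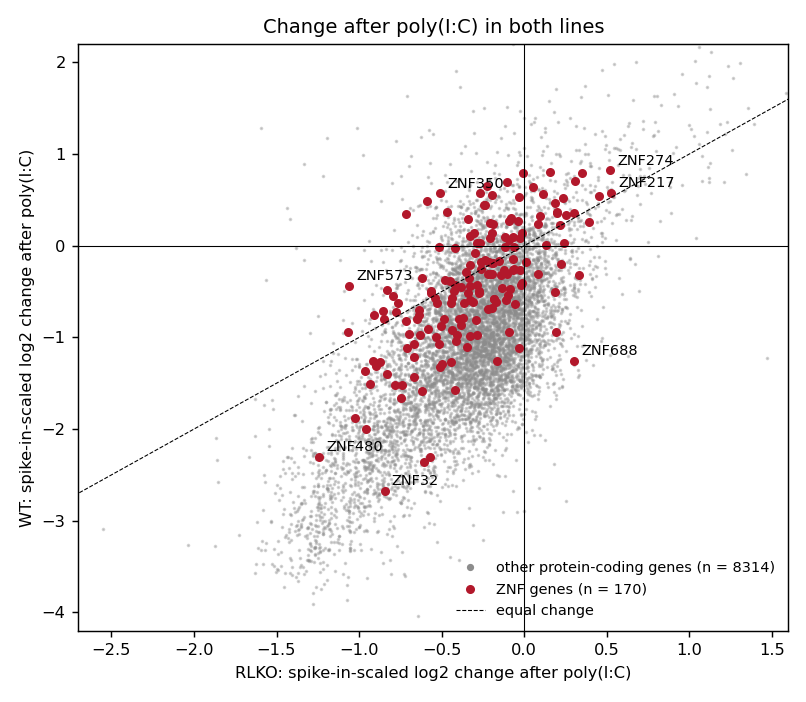
Log2 change with poly(I:C), scaled to the spike-ins, in RLKO (x axis) and WT (y axis), 1 point per gene, red for the 170 ZNF genes and grey for other protein-coding genes, of which 30 lie outside the axes; the dashed line marks equal change. Members with a WT change below -2 are ZNF32, ZNF480, ZNF277 and ZNF81, and the grey cloud reaches further down than the members do.

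By the q-values in the authors' deposited table, 1 of the 170 members fell in WT and none rose at q under 0.05. The background in WT was 3.14% lower and 5.08% higher over the 23767 tested gene rows. Over the 8482 protein-coding genes that passed the members' threshold it was 4.17% lower and 1.49% higher. In RLKO no member was called in either direction, where the background was 0.0376% lower and 0.545% higher over all 21280 tested rows. Over the protein-coding genes that passed the members' threshold it was 0% lower and 0.283% higher. At an unadjusted p under 0.05 in the authors' deposited table, by Cuffdiff, 2 members were lower and 14 higher in WT, where the background was 16.1% lower and 4.02% higher. In RLKO none was in either direction at that p, where the background was 2.1% lower and 1.03% higher. The direction of these calls is that of the deposited FPKM. All 14 members with a higher level were above 0 after spike-in scaling too.

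The member called lower was ZNF32 (ENSG00000169740, chr10:43643859-43648856, minus strand), a small factor of 6 fingers with a 3′UTR of 190 bases. It was at 33.1 FPKM in untreated WT, 6.94 in treated WT, 23.0 in untreated RLKO and 14.0 in treated RLKO cells. Treated WT was thus the lowest group and untreated WT the highest. The scaled log2 change was -2.67 in WT (q of 0.0201 in the authors' deposited table) and -0.85 in RLKO (q of 1.00 there). A further 3 annotated genes overlap ZNF32, and no source says whether reads were counted by strand.

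The other members with the lowest WT changes were not called. ZNF81 was at 16.6 FPKM in untreated and 3.98 in treated WT, and at 14.6 and 10.5 in RLKO, with scaled log2 changes of -2.36 and -0.61. It overlaps the coding genes ZNF182 and ZNF630 on the other strand. ZNF277 was at 32.1 and 8.99 FPKM in WT and at 25.7 and 19.3 in RLKO, with changes of -2.30 and -0.57 and a WT q of 0.0644 in the authors' deposited table. ZNF480 was at 36.6 and 10.4 FPKM in WT and at 30.2 and 13.8 in RLKO, with changes of -2.30 and -1.24. ZNF480 thus also had the lowest RLKO change of all members, ahead of ZNF30 (-1.07), ZNF573 (-1.06) and the pseudogene ZNF271P (-1.02).

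At the other end stood ZNF274 (ENSG00000171606, chr19:58183029-58213562, plus strand), a KRAB factor known for binding the 3′ ends of ZNF genes and bringing the histone methyltransferase SETDB1 there. It was at 11.3 FPKM in untreated WT, 31.7 in treated WT, 11.8 in untreated RLKO and 19.7 in treated RLKO cells. Both treated groups were above both untreated ones. The scaled log2 change was 0.83 in WT (q of 0.0564 in the authors' deposited table) and 0.52 in RLKO. ZNF574 was at 12.1 and 33.1 FPKM in WT and at 10.6 and 13.5 in RLKO, with changes of 0.80 and 0.16. ZNF830, a splicing-linked protein, was at 12.04 and 32.9 FPKM in WT and at 12.1 and 13.7 in RLKO, with changes of 0.80 and -0.01. It overlaps CCT6B, a coding gene on the other strand. ZNF200 was at 7.40 and 20.6 FPKM in WT and at 8.43 and 12.4 in RLKO, with changes of 0.80 and 0.35.

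The highest RLKO change belonged to ZNF217, an oncogene amplified in breast cancer and a partner of corepressor complexes. It was at 16.9 FPKM in untreated WT, 39.3 in treated WT, 20.6 in untreated RLKO and 34.1 in treated RLKO. Its scaled log2 changes were alike, 0.58 in WT and 0.53 in RLKO. ZNF202, a repressor of lipid metabolism genes, had changes of 0.54 in WT and 0.45 in RLKO. ZNF778 had 0.25 and 0.39. In these 3 genes and ZNF274 the treated level was above the untreated one in both lines.

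The response differed most between the lines, towards lower in WT, for ZNF32 (WT minus RLKO of -1.83 log2 units), ZNF81 (-1.75), ZNF277 (-1.73) and ZNF688 (-1.55). ZNF688 was at 6.86 FPKM in untreated and 3.70 in treated WT, but at 6.33 and 9.07 in RLKO, so the lines moved in opposite directions. Towards higher in WT it differed most for ZNF350 (1.08), ZNF814 (1.07), ZNF789 (1.07) and ZNF552 (0.88). ZNF350, a repressor that partners BRCA1, was at 7.43 FPKM in untreated and 17.5 in treated WT, and at 10.4 and 7.91 in RLKO. ZNF814 was at 6.64 and 14.7 FPKM in WT and at 7.37 and 5.18 in RLKO. ZNF789 was at 8.41 and 16.8 FPKM in WT and at 10.0 and 6.48 in RLKO. ZNF331, an imprinted gene, showed the same split, with 7.56 and 15.2 FPKM in WT and 6.21 and 4.77 in RLKO. In these last 4 genes the treated WT level was the highest of the 4 groups and the treated RLKO level the lowest or, in ZNF350, above untreated WT only. None of these differences between the lines could be tested.

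Among untreated cells, the FPKM ratio of WT to RLKO was highest for ZNF593 (1.48), ZNF32 (1.44), ZNF569 (1.40) and ZNF668 (1.40). It was lowest for ZNF141 (0.600), ZNF518A (0.606), ZNF185 (0.620) and ZNF280C (0.620). No member differed by 1 log2 unit between the untreated lines on the spike-in scale. For ZNF280C the order of the lines was the other way after treatment, with 6.53 and 15.2 FPKM in WT and 10.5 and 10.3 in RLKO.

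Members with a role in RNA, ribosomes or mitosis were described as a list of 14, of which 13 passed the threshold of 5 FPKM. None of the 13 was called at q under 0.05 in the authors' deposited table in either line, which with a WT background of 4.17% lower and 1.49% higher does not set so short a list apart. Their median scaled log2 change was -0.46 in WT and -0.15 in RLKO, beside -0.43 and -0.28 for all members. ZNF598, the ubiquitin ligase that senses collided ribosomes, was at 17.9 and 19.5 FPKM in WT and at 15.4 and 15.8 in RLKO, with changes of -0.46 and -0.13. ZNF622, a factor in maturing the large ribosomal subunit, was at 23.5 and 22.8 FPKM in WT and at 24.7 and 26.8 in RLKO, with changes of -0.63 and -0.06. ZNF593, which acts in the same process, was at 24.4 and 18.9 FPKM in WT and at 16.5 and 21.5 in RLKO. Its changes were -0.94 and 0.19, so its WT minus RLKO difference of -1.13 was the largest in size on the list. ZNF346, which binds double-stranded RNA, was at 8.37 and 13.1 FPKM in WT and at 11.7 and 10.8 in RLKO, with changes of 0.03 and -0.27. ZNF473, needed for the 3′ processing of histone mRNA, had changes of -0.40 and -0.01, and ZNF326, which couples transcription and splicing, had -0.92 and -0.43. ZNF106, an RNA-binding protein, had changes of -0.53 and -0.10.

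A list of 20 transcription factors was drawn up as lacking the KRAB box, without a check against a domain annotation, so some may carry it. Of these, 15 passed the threshold of 5 FPKM. None was called at q under 0.05 in the authors' deposited table in either line, beside the same background of 4.17% lower and 1.49% higher in WT. Their medians were -0.44 in WT and -0.18 in RLKO. ZNF143, a promoter-binding activator, was at 25.6 and 17.5 FPKM in WT and at 31.2 and 21.2 in RLKO, with changes of -1.11 and -0.71. ZNF148 had changes of -1.11 and -0.35, and ZNF410 of -1.29 and -0.50. ZNF281, a factor studied in stem cells, was at 12.4 and 26.7 FPKM in WT and at 13.4 and 17.4 in RLKO, with changes of 0.47 and 0.19. ZNF263 had 0.33 and 0.25, and ZNF462 had 0.70 and -0.11. ZNF24, ZNF131, ZNF384 and ZNF292 were between -0.59 and -0.02 in WT and between -0.19 and -0.11 in RLKO. The list ran from -1.31 (ZNF146) to 0.70 (ZNF462) in WT, inside the members' range of -2.67 to 0.83. Of other members with known roles, ZNF451, a SUMO ligase, had changes of -0.43 and -0.02, ZNF267 of -0.49 and -0.57, and ZNF460 of 0.24 and -0.19. ZNF121, already counted on the RNA, ribosome and mitosis list above, had changes of 0.08 and -0.21.

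The machinery that KRAB factors recruit was read from a list of 24 symbols, of which FAM208A and TASOR name 1 gene. Of the listed genes, 21 passed the threshold of 5 FPKM. None was called at q under 0.05 in the authors' deposited table in either line, beside 4.17% lower and 1.49% higher in WT. In WT 8 of the 21 were lower by at least 1 log2 unit, where 49.5% of protein-coding genes that passed the threshold were. The medians were -0.65 in WT and -0.35 in RLKO. TRIM28, the corepressor itself, was at 509 and 430 FPKM in WT and at 422 and 410 in RLKO, with changes of -0.86 and -0.22. CBX3, a heterochromatin protein, was at 266 and 86.1 FPKM in WT and at 216 and 142 in RLKO, with changes of -2.22 and -0.78. SETDB1 was at 18.99 and 30.1 FPKM in WT and at 20.9 and 21.0 in RLKO, with changes of 0.05 and -0.16. SETDB1 and ATF7IP, its partner, were the 2 genes of the list above 0 in WT.

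The KRAB box was sought in the first 250 residues by a fixed residue pattern, which matched 66 members, and by a wider pattern added after the first had missed boxes such as that of ZNF274, which matched 64. Only 46 genes matched both, and the first also matched ZNF148, listed here as a factor without the box, so neither is a full annotation. With the first pattern the WT median was -0.51 with a match and -0.40 without, and the RLKO median -0.40 and -0.21. With the wider pattern the WT medians were -0.56 and -0.32 and the RLKO medians -0.39 and -0.22. Genes with a match were thus lower in both lines under either pattern, by a small amount beside the range of -2.67 to 0.83 among members. With the first pattern, this held on chromosome 19 only. There the WT medians were -0.58 with a match (40 genes) and -0.26 without (24 genes), and the RLKO medians -0.46 and -0.22. On other chromosomes they were nearly equal, -0.42 (26 genes) and -0.44 (80 genes) in WT, and -0.21 and -0.20 in RLKO. The number of fingers went with the WT change hardly at all (Spearman's rho of 0.05 across 170 genes, which share their libraries).

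Chromosome 19 carried 64 of the 170 members, most of them in tandem groups. Their median WT change was -0.41, against -0.44 for the 106 members elsewhere, but the groups along the chromosome stood apart from each other. These groups are runs of members whose starts lie less than 1 Mb from the next, and the 3 with the most members on the chromosome are described, chosen after their values were seen. In the group from ZNF460 to ZNF584 (GRCh38, chr19:57280051-58418327, 13 members) the median WT change was 0.27, and 9 of 13 were above 0. Their RLKO median was -0.22, and WT minus RLKO was above 0 in 11 of 13. In the group from ZNF576 to ZNF180 (chr19:43596392-44500524, 12 members) the WT median was -0.66 and none was above 0, with a highest change of -0.17. Their RLKO median was -0.37, and WT minus RLKO was above 0 in 2 of 12. In the group from ZNF565 to ZNF573 (chr19:36182060-37817300, 9 members) the WT median was -0.87 and none was above 0. Their RLKO median was -0.67, and WT minus RLKO was above 0 in 3 of 9. Groups of at least 3 members on other chromosomes also had WT medians on both sides of 0. On chromosome 7 these were 0.29, 0.09 and -0.55, on chromosome 16 0.39 and -0.49, on chromosome 12 -0.90 and on chromosome 18 -0.02. All these signs are those on the spike-in scale.

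The described groups of chromosome 19 also differed in deposited GC content, whose part in these values was not tested. Its median was 47.0% in the ZNF460 to ZNF584 group, 41.2% in the ZNF576 to ZNF180 group and 40.8% in the ZNF565 to ZNF573 group. Within the first group, ZNF587, whose finger is printed above, was at 8.07 and 15.4 FPKM in WT and at 9.08 and 7.88 in RLKO. ZNF552 was at 5.04 and 12.8 FPKM in WT and at 6.63 and 6.26 in RLKO. ZNF544 went the other way, with 29.1 and 26.6 FPKM in WT and 34.8 and 21.3 in RLKO. ZNF587, ZNF587B and ZNF814 are near-copies that can share reads, and ZNF814 overlaps ZNF587 in the annotation, so the values of single genes in this group are uncertain. Of all members, 56 overlap another protein-coding gene, among them ZNF574 (GRIK5), ZNF789 (ZNF394) and ZNF552 (ZNF586).

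**Figure D3:**
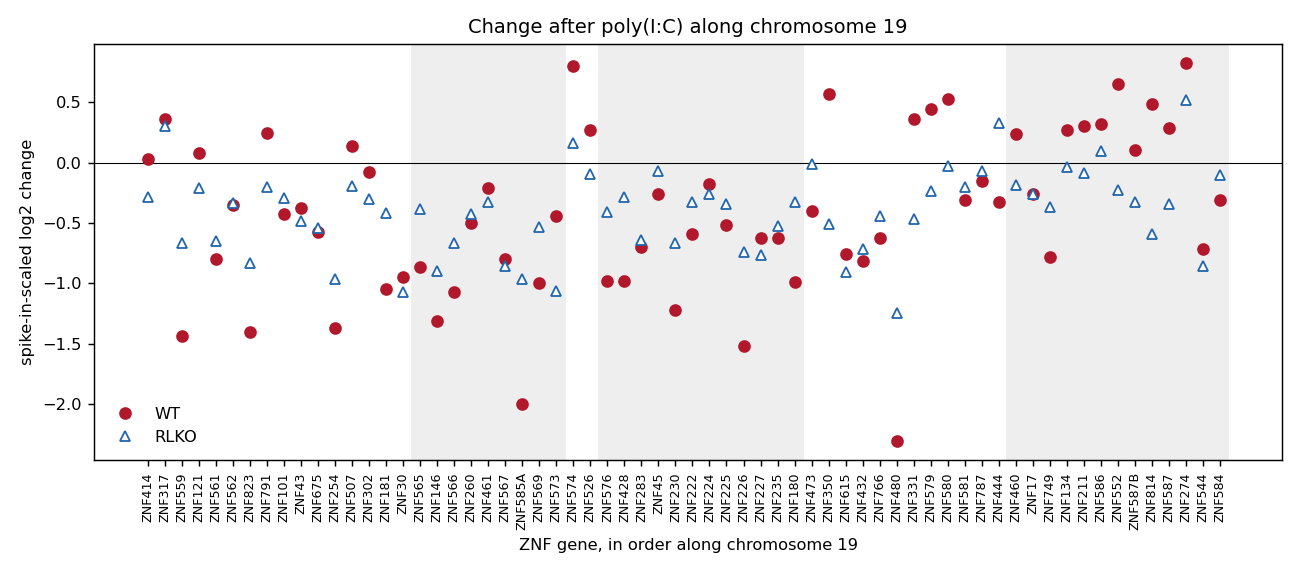
Log2 change with poly(I:C), scaled to the spike-ins, of the 64 ZNF genes of chromosome 19 in their order along it, filled circles for WT and open triangles for RLKO; grey bands mark the groups of 9, 12 and 13 members. All WT points of the left and middle bands lie below 0, and 9 of 13 in the right band lie above it.

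The deposited half-lives, which the authors took from another study, were short for ZNF genes. Among the 144 members with a value the median was 2.41 (quartiles 2.25 and 2.86), against 5.09 among 7423 other protein-coding genes. The header gives no unit, and the largest value in the column is 24. A half-life under 3 was listed for 113 of 144 members (78.5%) and for 20.7% of the others. The longest were those of ZNF428 (24), ZNF511 (11.1), ZNF664 (10.6) and ZNF219 (10.3). The shortest were those of ZNF322 (1.98), ZNF230 (2.00), ZNF615 (2.06) and ZNF526 (2.08). The 4 long-lived transcripts were all lower in WT, with changes of -0.98, -1.58, -0.88 and -0.80, and less so in RLKO, with -0.28, -0.42, -0.50 and -0.48. The 4 short-lived ones spread wider in WT, with changes of -0.62, -1.22, -0.75 and 0.27.

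Set against genes of like half-life, the members' medians were close to those of the others at the short end. Under a half-life of 2.5 the median WT change was -0.31 over 81 members and -0.27 over 469 other genes. From 2.5 to 3 it was -0.43 over 32 members and -0.60 over 1064 others. At longer half-lives the members were further above the others: from 3 to 4 the medians were -0.25 (16 members) and -0.80, from 4 to 8 they were -0.46 (9 members) and -0.92, and from 8 upwards -0.90 (6 members) and -1.43. The RLKO medians under 2.5 were -0.24 over members and -0.18 over the others. Across genes, WT change and half-life had a Spearman's rho of -0.15 over the 144 members and -0.46 over the 7423 others, as a description of points that share libraries and depth. Half-lives ran from 1.98 to 24 in both sets, but the quartiles were closer together in members (2.25 and 2.86) than in the others (3.17 and 9.86).

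**Figure D4:**
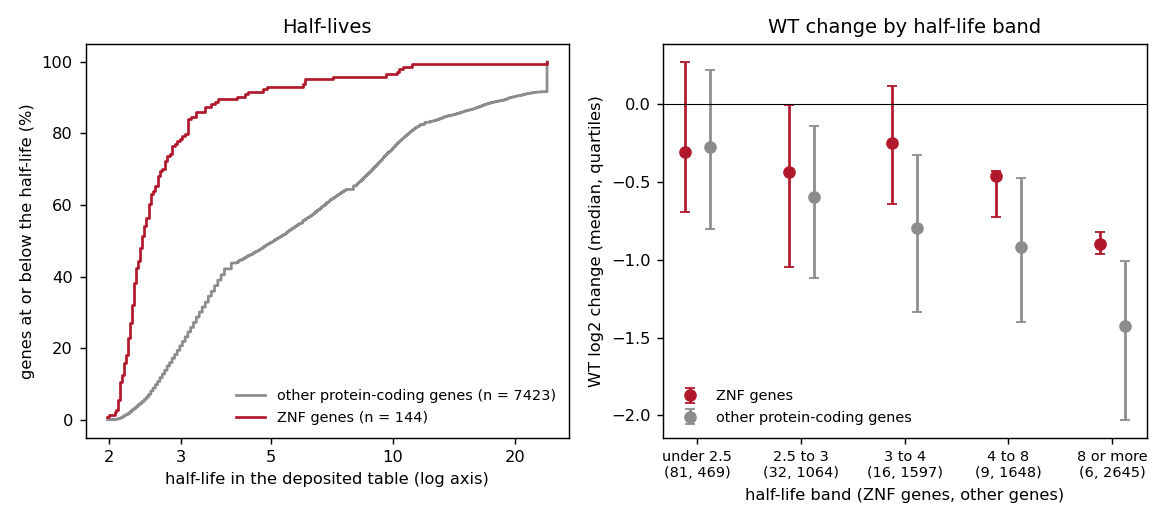
Left, share of genes (%) at or below each deposited half-life (log axis, no unit in the header) for 144 ZNF genes and 7423 other protein-coding genes; right, median WT log2 change with quartiles in bands of half-life, with the number of genes of each set in parentheses. The medians are -0.31 and -0.27 in the band under 2.5, and the other genes reach -1.43 in the band of 8 or more.

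The level of a gene moved with its WT change as well. Among members and others with a mean untreated level of 5 to 10 FPKM, the medians were -0.32 (76 members) and -0.50, at 10 to 20 FPKM -0.31 (59 members) and -0.73, at 20 to 50 FPKM -0.72 (29 members) and -1.04, and at 50 FPKM or more -0.80 (6 members) and -1.73. Members were thus above other genes of like level in every band. The part of level and half-life in the difference between members and other genes was not tested further.

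The 3′UTRs of members were longer, with a median of 1945 bases (167 genes) against 1413 (8257 genes). The longest belonged to ZNF26 (15621 bases), ZNF207 (12126) and ZNF562 (11140), and the shortest to ZNF408 (48), ZNF622 (137) and ZNF222 (168). ZNF26 and ZNF562 had WT changes of -0.31 and -0.35, and ZNF408 and ZNF222 had 0.03 and -0.59. Over the members, 3′UTR length and WT change had a Spearman's rho of -0.03, whereas it was 0.23 over the other genes. Transcript length gave 0.05 over members and 0.40 over the others. Length thus went with the WT change in other genes but hardly in the ZNF set. In each of 5 length bands of the 3′UTR the member median was above that of the others, from -0.61 against -1.40 under 500 bases to -0.44 against -0.80 at 4000 bases or more.

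Of the sequence features read, the deposited GC content went most with the WT change among members. Its header does not name the sequence it covers. For ZNF408 it was 54.1%, too low for the whole transcript of 2442 bases, where the coding sequence of 720 residues had 62.8%. Spearman's rho of deposited GC content with the WT change was 0.32 over members and 0.04 over the others, and with the RLKO change 0.36 and 0.05. In WT the member medians were -0.62 under 40% GC (38 genes), -0.55 from 40 to 45% (66 genes), 0.01 from 45 to 50% (35 genes) and -0.20 at 50% or more (31 genes). The other genes stayed between -1.04 and -0.96 in these bands. The count of TT plus TA per 100 coding bases, which falls as GC content goes up, had a rho of -0.26 with the WT change, -0.40 with the RLKO change and -0.06 with the difference of the responses. Over the other genes these were -0.15, -0.12 and -0.12. The part of these dinucleotides in the changes was not tested. The median deposited GC content was 42.8% in members and 43.8% in the others. Computed over the coding sequence, the medians were 44.3% and 50.5%.

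Other zinc-finger genes, grouped by symbol only, were read at the same threshold of 5 FPKM. The WT median was -0.33 over 18 ZBTB genes, -0.31 over 9 ZSCAN genes and -0.56 over 9 ZFP genes, beside -0.43 over the members. The RLKO medians were -0.07, -0.17 and -0.42, beside -0.28. The ZFP symbol does not mark a uniform set: its genes held 0 to 25 fingers by the pattern above, and their WT changes ran from -1.33 to 3.91. The median half-life was 2.41 over 15 ZBTB genes, 2.27 over 9 ZSCAN genes and 2.84 over 6 ZFP genes. Across genes, the changes in WT and RLKO had a Pearson's r of 0.66 over the 170 members and 0.70 over the other genes, whose values share the same 4 groups of libraries.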

How the data were processed

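One table of 58763 rows held every value; its columns are group values over 3 samples, so no column holds a single sample. Per the file headers, the authors gave FPKM per group, p-values and q-values of poly(I:C) against untreated cells in each line, half-lives from another study, lengths and GC content in percent. The submitters' processing notes name Cuffdiff 2.2.1, TopHat2 2.0.6 with Bowtie2 2.0.2, and Trimmomatic 0.32, without settings. Whether the samples came from separate cultures is not stated, so p-values may measure technical spread.

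Spike-in factors were median ratios over 49 of 92 ERCC RNAs (mean of at least 1 FPKM). Changes used a pseudocount of 1. Deposited calls used q under 0.05. Coding sequences came from GENCODE v29 (GRCh38), translated in place of RefSeq proteins; the deposited total length equalled the longest GENCODE transcript for 170 members, of which 32 were not coding transcripts. Code was tested on simulated data (Python 3.11, pandas 2.3.3, numpy 2.4.6). Members and lists were chosen with earlier results of these data known. Genes were named by rule: extremes of level, change, difference, half-life, 3′UTR and untreated ratio, deposited calls, threshold neighbours and listed roles; the genes of the chromosome 19 groups, ZNF688's direction and ZNF331's split were singled out after values were seen. The level of the targeted gene is not reported here. Alternatives were other scalings, pseudocount, thresholds and call rules.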

Additional observations from a re-analysis of the deposited data

How the results depend on the processing

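No paired analysis was possible because the table holds 1 pooled value per group, and for the same reason no replicate could be left out. On FPKM as deposited the median changes over members were 0.13 in WT and -0.13 in RLKO and the WT minus RLKO median 0.28, with 8 members lower by 1 log2 unit in WT and 1 in RLKO. With the median ratio over protein-coding genes these were 0.54, 0.014, 0.55, 5 and 0. With a threshold of 1 FPKM the WT median was -0.26, the WT minus RLKO median -0.010, and 8 of 331 ZNF genes were called higher in WT, beside 5.08% of all tested rows; those 8 lie under 5 FPKM and are ZNF160, ZNF503, ZNF543, ZNF594, ZNF606, ZNF627, ZNF689 and ZNF79. With a threshold of 10 FPKM the WT median was -0.54, 2 members were lower by 1 log2 unit in RLKO, and the median 3′UTR was 2193 bases. A pseudocount of 0.1 gave 7 members lower by 1 log2 unit in RLKO. At unadjusted p under 0.05, 2 members were lower and 14 higher in WT, and at q under 0.1, 2 lower and 4 higher, by the authors' deposited table. The sum of ERCC FPKM gave medians of -0.51 in WT and -0.28 in RLKO, and protein-coding members alone, an alternative chosen after seeing the data, gave -0.43 in WT. FPKM without counts leaves the precision of single genes unknown.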
